A study of Mus musculus with 23 samples.

Results

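The comparison described here asked, gene by gene, whether the response of the mouse colon to dietary heme differed between mice with and without PPARα. For each gene the heme response was the mean log2 signal of heme-fed mice minus that of control mice of the same genotype, and the interaction was the response of KO mice minus the response of WT mice. An interaction below 0 therefore means that the gene was raised less, or lowered more, by heme in KO mice. Of 18820 genes with a value, 14366 had a mean signal above 20 in at least 1 group and were described, using all 23 arrays of the series.

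RNA came from scrapings of the colon mucosa, and each mouse had 1 Affymetrix whole-transcript array, all on the same array plate. The WT strain was 129S1/SvImJ. The KO strain was 129S4/SvJae-Pparatm1Gonz/J, in which Ppara is disrupted in the whole body. All were males of 7 to 9 weeks that received a Westernized high fat diet for 14 days, in which fat gave 40% of the energy and calcium was 30 µmol per g. The heme groups (6 WT and 6 KO mice) received the same diet with 0.5 µmol heme per g, and the control groups (5 WT and 6 KO mice) received it without heme. The study left out 1 WT control array for its quality. Because the strains differ as well as Ppara, effects of genotype and of substrain cannot be told apart here. In scrapings of bulk tissue, nor can fewer cells of a type and less RNA per cell.

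PPARα is a nuclear receptor that binds fatty acids and their derivatives. As a partner of the retinoid X receptor it occupies direct repeats of a short hexamer near its target genes. Its best known targets are genes of fatty acid binding, omega-hydroxylation, peroxisomal and mitochondrial oxidation and ketone body synthesis, and in the gut it is expressed by enterocytes. Heme in the diet is cytotoxic and oxidizing in the colon lumen, and the surface of the mucosa is where it acts.

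Colon epithelial markers were well measured in all groups, and the 10 markers had interactions between -0.16 and 0.06, each with a 95% confidence interval (CI) within -0.5 to 0.5. Array medians lay between 5.80 and 5.90 on the log2 scale, and within groups each array's average correlation was at least 0.991. The lowest was that of KO heme replicate 1. Ppara itself had signals of 463, 444, 560, 471 and 539 in WT control mice, and of 344, 418 and 474 (lowest, median and highest) in WT heme-fed mice. In KO mice its signal was 240, 314 and 378 on the control diet and 163, 193 and 238 on the heme diet. The 12 KO mice thus gave a signal for Ppara, which on each diet lay below that of every WT mouse. Whether its probes lie in the deleted stretch is not known here, and outside it they would not check the labels. The interaction of Ppara was -0.38 (95% CI -0.69 to -0.06, adjusted p = 0.670).

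The promoter of Fabp1 is shown because Fabp1 had the largest interaction of all genes and because its promoter was the only one among the 25 genes with the smallest p that held the letters searched. The pattern AGGTCANAGGTCA, a direct repeat of AGGTCA with 1 base between, was searched on both strands in the 250 bases before each gene start, with 1 mismatch allowed. The allowance of 1 mismatch was chosen after the Fabp1 site had been seen. The sequence is from RefSeq, assembly GRCm38.p6, chr6:71199729-71199878, plus strand, and the capitals mark the match, which lies on the opposite strand with 1 mismatch, 67 to 55 bases before the start.
Fabp1: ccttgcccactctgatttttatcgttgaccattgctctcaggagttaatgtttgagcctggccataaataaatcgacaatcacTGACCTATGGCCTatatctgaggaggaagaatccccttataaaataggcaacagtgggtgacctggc

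Of 27025 genes with a promoter window, 153 (0.566%) held such a match, as did 56 of 11323 described genes (0.495%). Among the 25 genes with the smallest p, 19 had a window and 1 held a match. Cyp4a31 had no window in the table. A match is a description of these letters and not of binding.

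Across the 14366 genes, 2 had an interaction at an adjusted p under 0.01 (0.0139% of genes), and the same 2 passed at an adjusted p under 0.05 (0.0139%). These were Fabp1 and Cyp4a31, both genes of fatty acid handling, and both were higher on heme in WT mice while the 95% CI of the KO response included 0. Fabp1 encodes the liver-type fatty acid binding protein, which carries long-chain fatty acids in the cytoplasm. Cyp4a31 belongs to the Cyp4a family, which hydroxylates fatty acids at their omega end.

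Fabp1 had signals of 21.7, 25.8, 27.8, 26.3 and 26.7 in the 5 WT control mice, and of 174, 449 and 827 (lowest, median and highest) in WT heme-fed mice. In KO mice its signals were 22.9, 28.8 and 67.8 on the control diet and 21.0, 28.5 and 30.0 on the heme diet. Every WT heme-fed mouse lay above every mouse of the other groups, whereas KO heme-fed mice overlapped KO control mice. Fabp1 was 16.4-fold higher on heme in WT mice (log2 4.03) and 0.861-fold in KO mice (log2 -0.22). The interaction was -4.25 (95% CI -5.03 to -3.47, adjusted p = 8.34e-07 in limma).

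Cyp4a31 had signals of 14.0, 10.2, 11.8, 10.7 and 9.88 in WT control mice, and of 80.9, 93.3 and 214.5 in WT heme-fed mice. In KO mice they were 8.29, 9.91 and 11.4 on the control diet and 10.1, 12.1 and 14.5 on the heme diet. Again the WT heme-fed mice stood above all others without overlap, and the 3 other groups were below the signal floor of 20. Cyp4a31 passed the filter through WT heme-fed mice alone. Relative to the floor, it was at least 5.16-fold higher in WT heme-fed mice, and no fold is given for KO mice. With signals below the floor set to 20, the 3 other groups had no spread. The interaction of -2.37 then equals the distance of the WT heme-fed mice to the floor. Its interval and p are not a test of the interaction and are not given. On the deposited values the fit gave -2.91 (95% CI -3.42 to -2.41, adjusted p = 5.11e-07), which rests on signals below the floor and is not a bound. When the ordinary two-way model was applied to linear signal, neither gene passed (adjusted p = 0.219 for Fabp1 and 0.236 for Cyp4a31), and 0 genes were called while 1098 had an unadjusted p under 0.05.

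Cyp4a10, the best studied Cyp4a gene of the mouse, has no probe set of its own in these data and shares probe sets with near-identical paralogs, so that the values cannot be assigned to a single gene. The probe set annotated to Cyp4a31 and Cyp4a10 had signals of 43.9, 38.8, 53.0, 52.5 and 45.1 in WT control mice, and of 410, 603 and 945 in WT heme-fed mice. In KO mice it had signals of 31.3, 35.0 and 38 on the control diet and 40.7, 45.7 and 57.0 on the heme diet. The KO heme-fed mice lay above the KO control mice without overlap, but far below the WT heme-fed mice. The response was 3.69 (12.9-fold) in WT mice and 0.41 (1.33-fold) in KO mice, with an interaction of -3.28 (95% CI -3.71 to -2.86). A second probe set, annotated to Cyp4a32, Cyp4a31 and Cyp4a10, had an interaction of -3.18 (95% CI -3.60 to -2.76). Both had an adjusted p of 4.59e-09 in the fit over all probe sets.

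**Figure D1:**
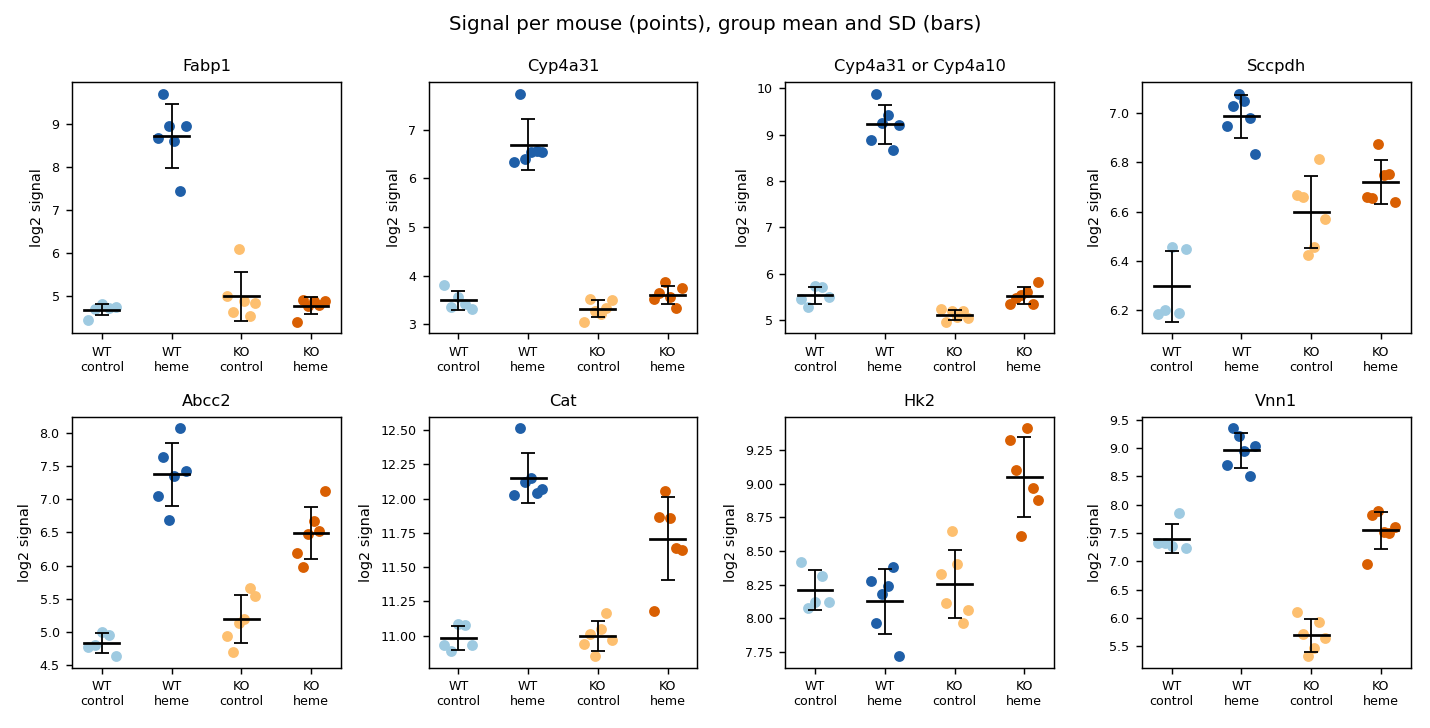
Log2 signal per mouse (points) in the 4 groups for 7 genes and the probe set shared by Cyp4a31 and Cyp4a10, with group mean and SD (black). In WT heme-fed mice Fabp1 and Cyp4a31 stand apart from all other mice, whereas Abcc2, Cat and Vnn1 were higher on heme in both genotypes.

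The gap between these 2 genes and all others is visible in the plot of interaction against p over all genes. The next gene by p, Sccpdh, had an adjusted p of 0.0532. The median interaction over all genes was -0.01, and 7726 genes (53.8%) were below 0. At an unadjusted p under 0.05 there were 1051 genes (7.32%), of which 449 (3.13% of all genes) were above 0 and 602 (4.19%) below 0. Of the 1051, 273 that were higher and 216 that were lower on heme in WT mice had a response of the opposite sign in KO mice, 190 and 128 had a smaller response of the same sign in KO mice, and 105 and 139 had a larger one. These classes use the same values as the interaction and are a description. The 95% CI extended 0.22 to each side of the estimate at the median, and for 14074 genes (98.0%) the whole CI lay within -1 to 1. For 11720 genes (81.6%) it lay within -0.5 to 0.5. For almost all genes a difference of response above 2-fold was therefore outside the interval.

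**Figure D2:**
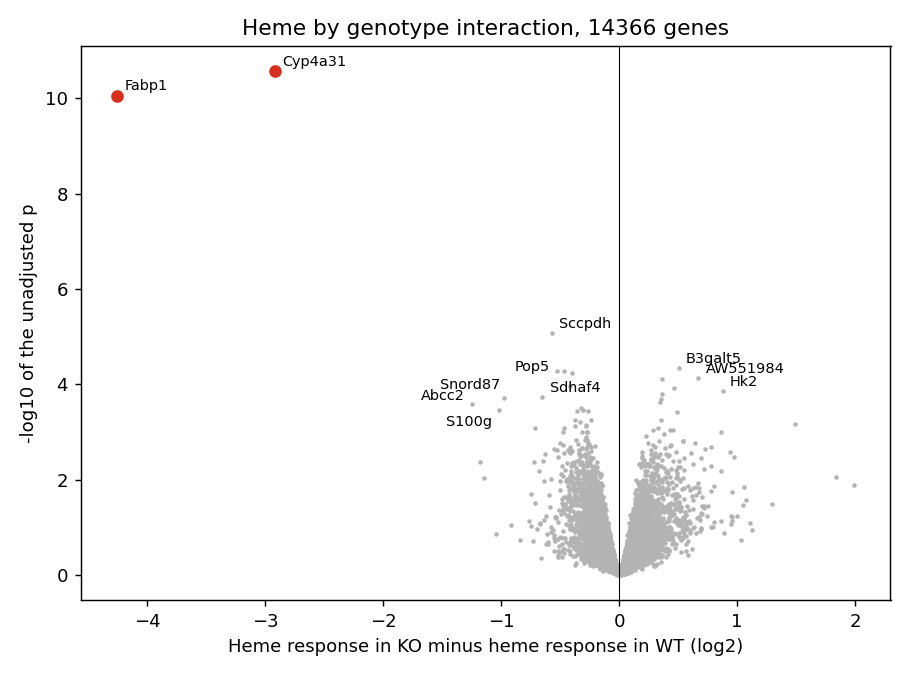
Interaction (log2, horizontal) against the unadjusted p (minus log10, vertical) for 14366 genes, with the 2 genes at an adjusted p under 0.01 in red. Fabp1 and Cyp4a31 lie far from the cloud, and the next genes by p lie at its upper edge.

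Beyond Fabp1 and Cyp4a31, the 23 genes with the next smallest p did not pass the adjusted threshold, and they are described by their values. Of the 25 genes together, 16 had an interaction below 0 and 9 above 0. In 8 of the 16, the 95% CI of the WT response lay above 0 and that of the KO response included 0. Besides Fabp1 and Cyp4a31 these were Sccpdh, Pop5, Mpv17l2, Pank1, Psma1 and Wrap73. The KO signals of Cyp4a31 lay below the floor, so its KO interval does not show a missing response. In 5 others the CI of the WT response included 0 and that of the KO response lay below 0 (Gpam, Snord87, Rpl15, Dpysl2 and S100g).

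Sccpdh had signals of 72.7, 73.6, 87.9, 73.0 and 87.3 in WT control mice and of 114, 128 and 135 in WT heme-fed mice, with no overlap. In KO mice the signals were 85.7, 98.0 and 112.5 on the control diet and 99.7, 104 and 117 on the heme diet, and these overlapped. The response was 0.69 in WT and 0.12 in KO mice (interaction -0.57, 95% CI -0.77 to -0.36). Mean log2 signals were 6.30 (WT) and 6.60 (KO) on the control diet, and 6.99 and 6.72 on the heme diet. The difference in response thus includes a difference on the control diet.

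Pop5, a subunit of ribonuclease P, had an interaction of -0.52 (95% CI -0.74 to -0.31, adjusted p = 0.152), with responses of 0.38 in WT and -0.14 in KO mice. Mpv17l2, an inner membrane protein of mitochondria, had an interaction of -0.46 (95% CI -0.66 to -0.27). Pank1, which starts coenzyme A synthesis, had responses of 0.35 and 0.08 (interaction -0.26, adjusted p = 0.264). A second, dimmer probe set of Pank1 gave an interaction of -0.31 with a CI of -0.77 to 0.16. Psma1, a subunit of the proteasome core, had responses of 0.42 and 0.06 (interaction -0.36), and Wrap73 had responses of 0.26 and -0.11 (interaction -0.37, adjusted p = 0.360).

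Gpam, the mitochondrial acyltransferase that starts glycerolipid synthesis, responded by 0.02 (WT) and -0.38 (KO) (interaction -0.40, 95% CI -0.56 to -0.23, adjusted p = 0.152). Its signals were 172, 198 and 216 in KO heme-fed mice and 232, 261 and 267 in KO control mice, without overlap. S100g, the calcium binding protein calbindin-D9k, had responses of -0.27 and -1.28 (interaction -1.02, 95% CI -1.52 to -0.52, adjusted p = 0.264). Its signals were 137, 200 and 290 in KO control mice and 61.7, 90.4 and 95.7 in KO heme-fed mice. The KO control mice also lay mostly above the WT control mice, which had signals of 95.9 to 149, so the difference in response includes a difference on the control diet. Snord87, a small nucleolar RNA, had an interaction of -0.97, and Dpysl2 of -0.31. Rpl15, a ribosomal protein, had an interaction of -0.32, and its 8 probe sets gave values from -0.33 to -0.27, although these can share probes with its pseudogenes.

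The remaining genes below 0 were Abcc2, Sdhaf4 and Map3k21. Abcc2, an apical efflux pump for conjugates and a known target of NRF2, had signals of 27.4, 27.9, 31.9, 31.1 and 24.8 in WT control mice and of 103, 168 and 268 in WT heme-fed mice. Its signals in KO mice were 26.1, 35.8 and 50.6 on the control diet and 63.0, 90.2 and 139 on the heme diet. Diets did not overlap in either genotype, and the heme-fed groups of WT and KO overlapped. The response was 5.81-fold in WT and 2.45-fold in KO mice (interaction -1.24, 95% CI -1.84 to -0.65, adjusted p = 0.245). Sdhaf4, an assembly factor of succinate dehydrogenase, had responses of 0.28 and -0.37, while a second probe set of it, near the floor, had an interaction of 0.05.

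The 9 genes above 0 fell into 3 sets. Hk2, B3galt5 and AW551984 were higher on heme in KO mice, with WT intervals that included 0. Hk2, the hexokinase that starts glycolysis, had signals of 342, 270.4, 278, 319 and 279 in WT control mice and of 211, 296 and 333 in WT heme-fed mice. In KO mice it had signals of 249.9, 299 and 402 on the control diet and 390.4, 525 and 680.3 on the heme diet. The KO heme-fed mice lay above all WT mice and overlapped KO control mice slightly. The response was 0.943-fold in WT and 1.73-fold in KO mice (interaction 0.88, 95% CI 0.48 to 1.27, adjusted p = 0.211). B3galt5, a galactosyltransferase of glycan chains, had responses of -0.02 and 0.48 (interaction 0.51, 95% CI 0.30 to 0.71, adjusted p = 0.152). AW551984 had an interaction of 0.67 (95% CI 0.38 to 0.96). In 2610528A11Rik, Celf4, Gdpd1, Akap13 and Asap1 the response lay below 0 in WT mice, from -0.25 to -0.44, and the KO interval included 0. For Celf4 the genotypes differed mainly on the control diet, with mean log2 signals of 4.89 (WT) and 4.47 (KO), against 4.53 and 4.58 on heme. Its signals were near the floor, and the highest were those of WT control replicates 1 (31.1) and 2 (35.2). Hoxc5, near the floor, had responses of -0.18 and 0.17.

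**Figure D3:**
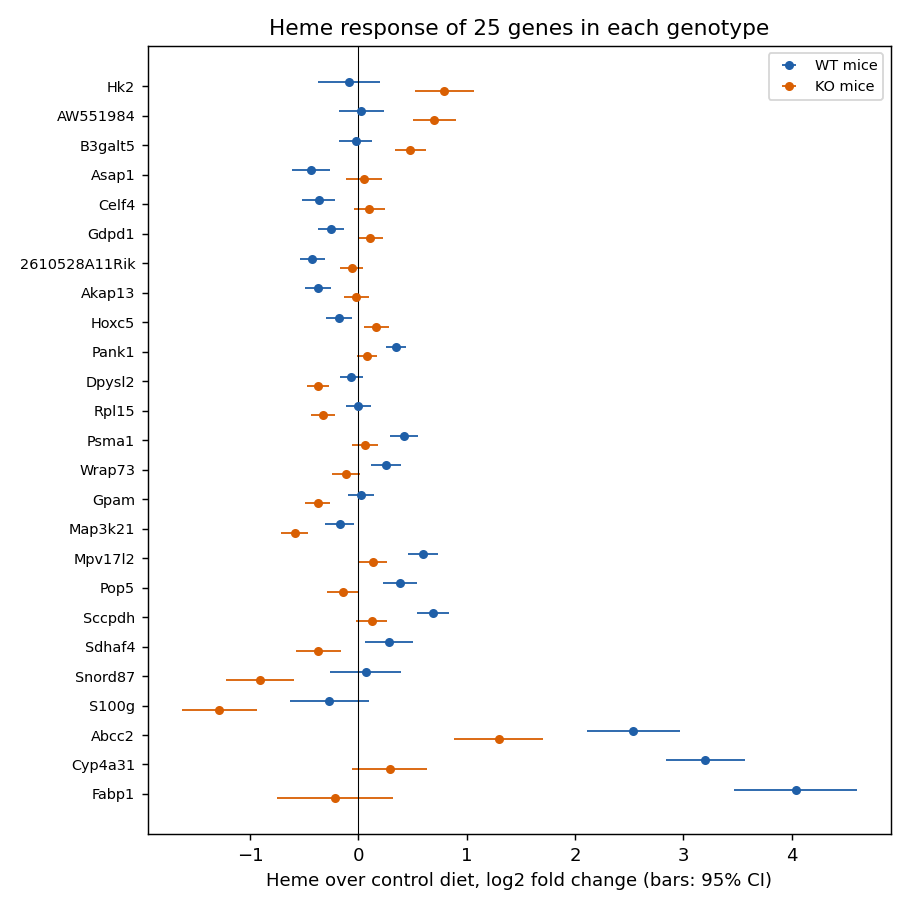
Heme response (log2, with 95% CI) of the 25 genes with the smallest interaction p, with WT mice in blue and KO mice in orange, sorted by interaction. Only Fabp1 and Cyp4a31, at the bottom, passed the adjusted threshold, and for Abcc2 both genotypes lay above 0.

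To describe functions, 49 gene lists were used, 35 of functions and 14 of cell type markers. Of the 624 genes of the function lists above the floor, 66 (10.6%) had an unadjusted p under 0.05, 42 of them below 0 and 24 above 0. In 8 of the 35 lists no gene did, and 31 lists had a median interaction between -0.15 and 0.15. The range of the list medians was -0.26 to 0.29. Over all genes the share was 7.32%, with 4.19% below 0 and 3.13% above 0, and the lists were chosen with earlier results of these data known. In what follows, "at p under 0.05" is unadjusted, and none of the genes named had an adjusted p under 0.05 apart from Fabp1 and Cyp4a31.

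Among fatty acid binding and uptake genes, 14 were above the floor, 3 lay below 0 at p under 0.05 and 0 above, and the median interaction was -0.08. Besides Fabp1 these were Got2 (-0.20), which also has a role in fatty acid uptake, and Fabp6 (-0.39), a bile acid binding protein near the floor. Fabp2, the intestinal paralog of Fabp1, had responses of 0.61 and 0.40 (interaction -0.21, 95% CI -0.62 to 0.21, adjusted p = 0.894). Slc27a2, a fatty acid transporter and acyl-CoA synthetase, had responses of 1.05 and 0.57 (interaction -0.47, 95% CI -1.17 to 0.22), an interval wide enough to hold both 0 and a more than 2-fold difference.

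The omega-hydroxylase list held 9 genes above the floor, and only Cyp4a31 and Cyp4f14 were at p under 0.05. Cyp4f14 had responses of 0.38 and 0.01 (interaction -0.37, 95% CI -0.68 to -0.06, adjusted p = 0.664). The other 7 had interactions that were not distinguishable from 0, so that the list's median was -0.02. The acyl-CoA synthetases (9 genes, 1 above 0 at p under 0.05) and thioesterases (9 genes, 0 at p under 0.05) had medians of -0.04 and -0.04. The thioesterases had responses with medians of 0.57 (WT) and 0.53 (KO).

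The carnitine shuttle and mitochondrial β-oxidation genes, the central route of fatty acid breakdown, gave 0 of 23 genes at p under 0.05, with a median of 0.04. All 23 had a CI within -1 to 1 and 21 within -0.5 to 0.5. Their heme responses had medians of 0.32 for WT and 0.37 for KO. In the peroxisomal list, 20 genes gave 1 above 0 and 2 below 0. Ehhadh, the bifunctional enzyme of peroxisomal oxidation and a classical PPARα target, had signals of 302 to 378 in WT control, 635 to 869 in WT heme-fed, 300.0 to 374 in KO control and 330 to 563 in KO heme-fed mice, so the KO groups overlapped and the WT groups did not. Its responses were 1.07 and 0.55 (interaction -0.52, 95% CI -0.84 to -0.19, adjusted p = 0.505). Scp2, the sterol carrier and thiolase, had an interaction of 0.27 and Nudt19, a coenzyme A hydrolase, of -0.24. A second, dimmer probe set of Nudt19 gave an interaction of 0.08. Acaa1a, the peroxisomal thiolase, had an interaction of -0.20 (95% CI -0.46 to 0.07).

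Lipid droplet and lipolysis genes numbered 17, of which 3 lay above 0 at p under 0.05. Hilpda, a lipase inhibitor of droplets that responds to hypoxia, had responses of 0.41 and 0.96 (interaction 0.55, adjusted p = 0.621). Gpihbp1 had 0.36 and Plin2, the coat protein of droplets, 0.22. Of the 4 measured ketone body genes, Oxct1 had an interaction of -0.24. Cholesterol synthesis genes responded with medians of 0.63 (WT) and 0.59 (KO), and 2 of 23 were at p under 0.05 (Nsdhl -0.27 and Sc5d -0.16). Fatty acid synthesis genes had a median of -0.14 over 17 genes, with Acacb at 0.41 and Scd2 at -0.28. Apoa1, the main apolipoprotein of high density lipoprotein, had an interaction of -0.75 (95% CI -1.36 to -0.13, adjusted p = 0.651), and 1 KO control mouse reached 154.5 where the group's median was 60.7.

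Glycolysis and hypoxia genes (24) had a median of 0.07, with Hk2 and Pfkfb4 (0.27) above 0 and Pgam1 (-0.24) below 0. Pgam1 was read by 3 probe sets, with interactions of -0.25 to -0.24, but a pair of them had identical signals in every mouse and counts once. Vnn1, the pantetheinase of the epithelial surface, had signals of 150 to 232 in WT control, 364 to 649.5 in WT heme-fed, 40.0 to 68.9 in KO control and 124 to 236 in KO heme-fed mice. Its level was lower in KO mice on each diet, but its responses were alike in size as folds, 2.94-fold and 3.60-fold (interaction 0.29, 95% CI -0.19 to 0.78, adjusted p = 0.857). On linear signal the difference of responses was -197 (adjusted p = 0.320 in the ordinary two-way model), a smaller rise in signal in KO mice. Pparg and Ppard, the other PPAR receptors, had interactions of 0.09 (95% CI -0.18 to 0.36) and -0.05 (95% CI -0.21 to 0.11). Pdk3, a pyruvate dehydrogenase kinase, had an interaction of 0.24. The lists of fuel choice (11 genes), triglyceride and lipoprotein assembly (17), vanins and coenzyme A (8) and PPAR receptors and partners (16) had medians of -0.06, -0.03, 0.02 and -0.04.

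Among NRF2 targets, 32 genes were above the floor, 5 were below 0 and 1 above 0 at p under 0.05, and 24 of 32 were below 0, with a median of -0.11. The 5 were Abcc2, Gclm (-0.41), Abcc4 (-0.40), Nqo1 (-0.40) and Gss (-0.24), and Akr1b8 (0.32) was above 0. Over the fits without 1 array, 21 to 27 of the 32 were below 0, and the median ran from -0.12 to -0.07. The median of -0.07 was without KO heme replicate 1. Its mean log2 signal over the list was 9.19, against 9.46 to 9.55 in the other KO heme-fed mice. Nqo1, a quinone reductase, had signals of 145 to 200.3 in WT control, 510 to 668 in WT heme-fed, 147 to 212 in KO control and 330 to 620 in KO heme-fed mice, with responses of 3.59-fold and 2.73-fold. The interval of its interaction ran from -0.75 to -0.05 (adjusted p = 0.687). Gclc, the catalytic subunit of glutamate-cysteine ligase, had responses of 3.39-fold and 2.86-fold (interaction -0.25, 95% CI -0.57 to 0.08), and its regulatory subunit Gclm had 1.99-fold and 1.5-fold. Abcc2, Nqo1, Gclc and Gclm were thus higher on heme in both genotypes.

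Catalase, which breaks down hydrogen peroxide in peroxisomes, had signals of 1952, 1898, 2168, 2162 and 1954 in WT control and 4162, 4376 and 5837 in WT heme-fed mice. In KO mice the signals were 1845, 2034 and 2301 on the control diet and 2326, 3453 and 4262 on the heme diet. Diets did not overlap in either genotype. The responses were 2.25-fold and 1.63-fold (interaction -0.46, 95% CI -0.78 to -0.14, adjusted p = 0.583). In the list of peroxide, superoxide and thioredoxin enzymes, 22 genes had a median of -0.01, and Cat and Sod2 (-0.15) were at p under 0.05. Sod1 had an interaction of -0.11 (95% CI -0.26 to 0.04).

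Among AP-1 subunits, NRF2 and partners (16 genes), only Nfe2l2, which encodes NRF2, was at p under 0.05 (-0.20). Fosl1, an AP-1 subunit, shares 2 probe sets with Ccdc85b. These gave responses of 1.12 and 1.91 (interaction 0.79, 95% CI -0.46 to 2.04) and an interaction of 0.05. The stress markers that the study names (7 genes) all had interactions above 0, with a median of 0.29 and 0 at p under 0.05. Without KO heme replicate 5, Mcpt1 was at -0.07 and Mcpt2 at -0.25, so that 5 of the 7 remained above 0. Mcpt1 and Mcpt2, mast cell proteases, had interactions of 0.32 (95% CI -0.88 to 1.52) and 0.09 (95% CI -1.17 to 1.35), wide enough to hold 0 and a more than 2-fold difference. Metallothioneins (11 genes) and heme and iron genes (16 genes) gave 0 at p under 0.05, with medians of -0.00 and -0.05. Mt1 had responses of 1.66-fold and 1.82-fold.

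**Figure D4:**
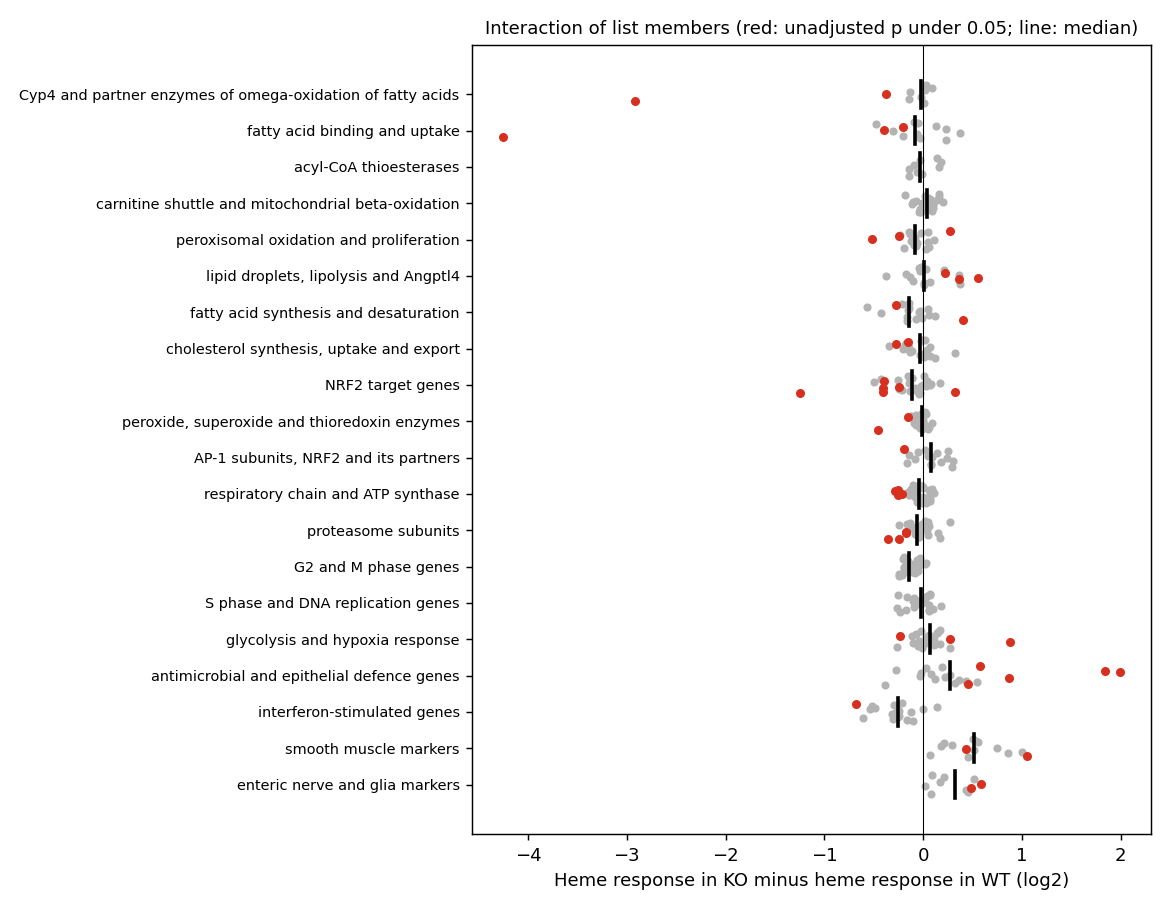
Interaction (log2) of each gene above the floor in 20 gene lists, with genes at an unadjusted p under 0.05 in red and the list median as a black line. Fabp1 and Cyp4a31 lie far to the left of all others, and the mitochondrial β-oxidation list sits around 0.

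G2 and M phase genes (25) gave 0 at p under 0.05. Of them, 23 had an interaction below 0 (19 to 25 over the fits without 1 array), with a median of -0.15, and responses with medians of 0.82 (WT) and 0.72 (KO). All 25 had a CI within -1 to 1 but 5 within -0.5 to 0.5, so a modest difference in the proliferation response was not resolved. S phase genes (23) had a median of -0.02. Over the fits without 1 array it ran from -0.14 (without WT heme replicate 4) to 0.07 (without WT heme replicate 1). The 4 proliferation inhibitors that the study names all had interactions of 0 or below, and Ihh, a hedgehog ligand of the surface, was the only one at p under 0.05, with responses of -0.36 and -0.71 (interaction -0.35, adjusted p = 0.600). Il15 had -0.27 (95% CI -0.63 to 0.09), Wif1, an inhibitor of Wnt, -0.20 (95% CI -0.48 to 0.08), and Bmp2 -0.00 (95% CI -0.30 to 0.29). Over the fits without 1 array, Bmp2 ran from -0.06 to 0.08. Of the Wnt and crypt base genes (21), 5 were at p under 0.05. Lgr5 (-0.32), Fzd5 (-0.26) and Fzd7 (-0.24) lay below 0, and Myc (0.43) and Prom1 (0.26) above 0. A second probe set of Prom1 gave -0.11. EGF family genes gave 0 of 12 at p under 0.05, with 11 above 0.

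Respiratory chain genes (38) had a median of -0.05, with 4 below 0 at p under 0.05. These were Ndufs1 (-0.29), Ndufs4 (-0.26) and Ndufa5 (-0.21) of complex I, and Ndufa4 (-0.25). All 38 had a CI within -0.5 to 0.5. In the citrate cycle, Idh1 (0.19) and Idh3g (0.12) lay above 0 and Aco1 (-0.14) below 0. Proteasome genes (29) gave 4 below 0 at p under 0.05, Psma1, Psma2 (-0.24), Psmb7 (-0.18) and Psmb5 (-0.17), and the list responded with medians of 0.39 (WT) and 0.34 (KO). The median of the citrate cycle list was -0.03 over 21 genes and that of the proteasome list -0.06. In the list of unfolded protein and integrated stress response genes, Sesn2 had -0.42, and the median of 19 genes was -0.05.

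Antimicrobial and epithelial defence genes were the list with the most genes above 0 at p under 0.05, 5 of 19, and 0 below, with a median of 0.27. Over the fits without 1 array the median ran from 0.14 (without KO heme replicate 1) to 0.42 (without KO control replicate 3). Reg3b, a lectin that binds bacteria, had signals of 891, 3896, 2045, 3953 and 3164 in WT control and 191, 850.0 and 2957 in WT heme-fed mice. In KO mice it had 1892, 2867 and 4149 on the control diet and 1052, 4188 and 5441 on the heme diet. The groups overlapped, and mice within a group differed by several-fold. The interaction of Reg3b was 1.99 (95% CI 0.46 to 3.51, adjusted p = 0.620), and that of its neighbour Reg3g was 1.84 (95% CI 0.51 to 3.16, adjusted p = 0.607). Lcn2, an iron-siderophore binding protein, had 0.87, Saa3 0.58 and Cxcl1 0.45. Interferon-stimulated genes (20) had a median of -0.26, with 19 below 0 and Stat2 (-0.68, adjusted p = 0.583) at p under 0.05. This rested on KO control replicates 3 and 4, whose mean log2 signals over the list were 7.81 and 8.04, against 6.84 to 7.10 in the other 4 KO control mice and 6.67 to 7.12 in WT control mice. Without these 2 arrays the median was 0.12 and 7 of 20 genes were below 0. Trim15 (0.94) and Sprr2h (0.62) of the surface injury list were above 0, Sprr2h being above the floor in KO heme-fed mice alone. Akr1c18, a hydroxysteroid dehydrogenase, had an interaction of 0.87 on the log2 scale, but its signals were lower in KO than in WT control mice (40.3 to 58.7 against 122 to 169), and on linear signal the difference of responses was -94.0. Akr1c13 (-0.48) and Ugt2b5 (-0.47) were below 0. Alpi, the intestinal alkaline phosphatase of the brush border, had responses of 1.36 and 0.85 (interaction -0.51, 95% CI -1.0 to -0.02), and Slc6a14, an amino acid transporter, had an interaction of 0.31. The surface injury (19 genes), enterocyte (27) and xenobiotic (26) lists had medians of -0.04, 0.00 and -0.04.

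Of the 127 genes of the 14 marker lists above the floor, 9 (7.09%) were at p under 0.05, close to the 7.32% over all genes. All 14 smooth muscle markers had an interaction above 0, or 13 without WT control replicate 2, with a median of 0.51 (0.28 without that array), and responses with medians of -1.0 (WT) and -0.41 (KO). Actg2, smooth muscle actin, had responses of -1.43 and -0.38. The mean log2 signal of the 14 markers was 7.74 to 9.14 in WT control mice, 7.12 to 7.59 in WT heme-fed, 7.00 to 8.18 in KO control and 6.97 to 7.58 in KO heme-fed mice. The 2 highest arrays were WT control replicates 1 (8.81) and 2 (9.14). With this mean as a covariate the median of the list was -0.04, which is held near 0 because the covariate is the mean of these same markers. Without both arrays, which were chosen for their high signal of this list, it was 0.05. Neither value is a test of the list. Enteric nerve and glia markers (10) also all had interactions above 0, or 8 without WT control replicate 2, with a median of 0.32 (0.16 without that array), and 0.09 with the covariate. Fibroblast (13 genes), endothelial (10), adipocyte (7), T cell (9), B and plasma cell (9), mast cell (8) and enteroendocrine (9) markers gave 0 at p under 0.05, with medians of -0.07, -0.13, -0.11, -0.01, 0.08, 0.10 and -0.04. Those of macrophages and neutrophils (12 genes), goblet cells (8) and tuft cells (7) had medians of -0.00, -0.06 and -0.07. With the smooth muscle covariate the medians of fibroblast, endothelial and macrophage and neutrophil markers were -0.34, -0.31 and -0.23. WT control replicate 3 stood apart for these markers, with a mean log2 signal of 6.70 for fibroblast markers against 7.83 to 8.25 in the other WT control mice, and of 6.17 against 7.17 to 7.33 for endothelial markers. Without it the medians were 0.12, 0.06 and 0.20. For B and plasma cell markers, KO heme replicate 1 had a mean log2 signal of 8.20, against 6.02 to 7.08 in the other KO heme-fed mice. Without KO heme replicate 1 their median interaction was -0.23. Alas2, an enzyme of red cell precursors, had -0.33, and the probe sets of the globin genes had -0.68 and -0.64 for Hba-a1 and Hba-a2 and -0.43 and -0.42 for the Hbb genes.

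**Figure D5:**
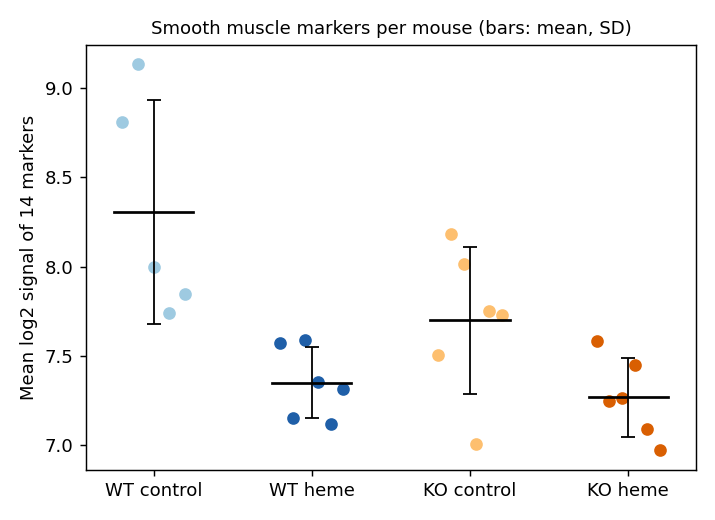
Mean log2 signal of 14 smooth muscle markers per mouse (points) in the 4 groups, with mean and SD. WT control mice range from 7.74 to 9.14, above or overlapping every other group, and KO heme-fed mice reach 6.97.

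The interactions of Fabp1 and Cyp4a31 with the smooth muscle mean as a covariate were -4.26 and -2.91, both at an adjusted p under 0.01. That of Cyp4a31 again rests on signals below the floor. Abcc2 then had -1.07, Sccpdh -0.55 and Hk2 0.85. With this covariate 952 genes were at an unadjusted p under 0.05, against 1051 without. The part of smooth muscle content in the other interactions was not tested.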

How the data were processed

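Colon scrapings of 23 mice were profiled on Affymetrix Mouse Gene 1.1 ST arrays, with 100 ng of RNA each. The authors deposited log2 values per probe set, made by Robust Multi-array Average over all arrays. They were not normalised again, and the version of that tool is not given in the sources used. Linear signals were computed as powers of 2. Arrays have no read depth, and their number limits the precision.

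Of 35556 probe sets, 21218 carried 1 symbol, 1881 several and 12457 none. Symbols were updated by Entrez number for 21185 probe sets in a RefSeq table of GRCm38.p6. For 1386 genes with several probe sets the one with the highest mean was taken. All 4 groups entered 1 model in limma 3.58.1 (R 4.3.3), with Benjamini-Hochberg adjustment over 18820 genes, and a gene was called with a group mean above 20. Probe sets of several genes were reported as such. Named were the called genes, filled up to 25 by p, genes that the study names, and up to 3 members of each list with the smallest p under 0.05. Members and lists were chosen with earlier results of these data known, and list genes named beyond this were chosen after their values were seen. The search of promoters used Python 3.11.15. Columns without a sample numbered 0. The steps were tested on simulated data. Alternatives were other filters, adjustments, variance models, array weights, centring, linear signal, all probe sets, a covariate, the replicate number as a block, and each array left out. Genes that no probe set measured alone were not analysed as single genes, and no value is given for Acsl1.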

Additional observations from a re-analysis of the deposited data

Results flagged for a closer look

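The heme response differed between genotypes by the interaction test in limma for Fabp1 (-4.25). It also differed for the probe sets annotated to Cyp4a31 and Cyp4a10 (-3.28) and to Cyp4a32, Cyp4a31 and Cyp4a10 (-3.18). For Cyp4a31 the same fit gave -2.91, but this value rests on signals below the floor in all groups except WT heme.

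Single mice that stood apart within their group were sought by Dixon's ratio, the gap to the nearest mouse over the range of the group on the log2 scale, for 46 genes and the mean of the smooth muscle markers in 4 groups each. Of 188 groups tested, 9 had such a mouse (4.79%), and chance gives about 1 in 20. For Fabp1 these were KO control replicate 3 (ratio 0.699, signal 67.8) and KO heme replicate 1 (ratio 0.725, signal 21.0), and for Cyp4a31 WT heme replicate 2 (ratio 0.840, signal 214.5), which was also the highest WT heme mouse for Cat (ratio 0.733, signal 5837). The others were Gdpd1 in WT control replicate 1 (ratio 0.753), Gclc in WT heme replicate 4 (ratio 0.804, the lowest), Sod1 in KO heme replicate 3 (ratio 0.751), Wif1 in KO control replicate 3 (ratio 0.703, the lowest) and Vnn1 in WT control replicate 4 (ratio 0.851). Without KO control replicate 3 or WT heme replicate 2 the calls of Fabp1 and Cyp4a31 at an adjusted p under 0.01 stood.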

How the results depend on the processing

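Fabp1 and Cyp4a31 were the called genes at an adjusted p under 0.01 under every alternative on the log2 scale apart from those that added probe sets or Sccpdh, and over the arrays left out in turn the count stayed at 2. Leaving out 1 array gave interactions of -4.51 to -4.03 for Fabp1 and -2.99 to -2.70 for Cyp4a31. The range for Cyp4a31 rests on signals below the floor in all groups except WT heme. With all probe sets 4 were called at an adjusted p under 0.01 and 4 at under 0.05, adding both Cyp4a probe sets of several genes. The ordinary two-way model on linear signal called 0 at either threshold (differences of -96.7 for Cyp4a31, adjusted p = 0.236, and -444 for Fabp1, adjusted p = 0.219), while 1098 genes were at an unadjusted p under 0.05; the cause was not tested. At an adjusted p under 0.05 the count was 5 with array weights (adding 2610528A11Rik, Pop5 and Sccpdh), 3 when adjusted over the genes above the floor (adding Sccpdh) and 4 with the replicate block (adding Gpam and Sccpdh). Leaving out each array in turn gave 2 to 5 genes there. It was 5 without KO control replicate 3 (adding B3galt5, Sccpdh and Snord87), 4 without KO heme replicate 1 (adding 2610528A11Rik and Qpct) and 4 without KO heme replicate 3 (adding Plat and Sccpdh). The replicate block changed no call at an adjusted p under 0.01. Over 33 same-numbered pairs the correlation of deviations ran from -0.31 to 0.34, and 4 of 23 arrays correlated best with their own number. The mean was 0.05 for same-numbered pairs and -0.01 for other pairs. What mice of the same number shared is not given by the labels, and these values cannot show it. Leaving out both WT control arrays with the highest smooth muscle signal, chosen after seeing the data, gave 2. So did setting signals below the floor to 20, but for Cyp4a31 all groups except WT heme then had no spread, which is no test. Leaving out KO control replicates 3 and 4 together gave 3 with Sccpdh added (-0.65). Both of these settings were also chosen after seeing the data. With the smooth muscle covariate the median of the Wnt and crypt base list was -0.16 against -0.01. That of the smooth muscle markers was -0.04 against 0.51, which follows from the covariate being their own mean. Among the fits without 1 array, many lists had their highest median without KO heme replicate 1, the array with the lowest average correlation. Among these were mitochondrial β-oxidation (0.08), NRF2 target (-0.07) and respiratory chain genes (-0.02). Others had their lowest median there, such as G2 and M phase genes (-0.23) and macrophage and neutrophil markers (-0.11). The study's reorganised probe sets were not used, so the probes behind a gene can differ from those of the study. With 5 or 6 mice a group, interactions under about 0.5 on the log2 scale were often not resolved.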
